A study of Mus musculus with 36 samples.

Results

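Neu2 and Procr are 2 of the 11337 genes whose RNA was measured in mouse skeletal muscle stem cells. They were chosen from these same values, as genes that were lower with running in young mice and higher in cells without Ccnd1, so their levels in those contrasts are given as a description with no test. The knockout part of that choice held against different controls. Procr was higher in KO than in WT cells and close to HET cells, whereas Neu2 was higher in KO than in HET cells and close to WT cells.

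Neu2 encodes the cytosolic sialidase, an enzyme that removes terminal sialic acids from glycoproteins and gangliosides, and skeletal muscle is known as a site of its expression. In cultured rodent myoblasts its level is known to increase during differentiation into myotubes. Procr encodes the endothelial protein C receptor (EPCR, CD201), a membrane glycoprotein that presents protein C to the thrombin and thrombomodulin complex, by which protein C is activated, and that helps activated protein C to signal through the protease-activated receptor encoded by F2r. EPCR is also used as a surface marker of haematopoietic stem cells.

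The 36 libraries came from 36 male mice, named C57BL6 in the study design, with 1 individual mouse per library. In the wheel cohort, cells were sorted from hindlimb muscle as viable cells with VCAM and without CD31, CD45 or Sca1. It held 5 old mice (18 months) with a free running wheel for 3 weeks, O(+Ex), and 7 old mice with a locked wheel, O(-Ex), next to 3 young mice (3 months) with a free wheel, Y(+Ex), and 6 with a locked wheel, Y(-Ex). In the Ccnd1 cohort every mouse carried Pax7_CreERT2 and R26R_YFP and received tamoxifen, the WT controls included, and viable YFP+ cells were sorted 6 weeks later. It held 3 old mice with Ccnd1_+/+, O(WT), 5 young mice with Ccnd1_flox/flox, Y(KO), 4 young mice with Ccnd1_+/flox, Y(HET), and 3 young mice with Ccnd1_+/+, Y(WT). Recombination was limited to cells in which Pax7 drove Cre, so other cells of these mice kept Ccnd1.

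Values are RPKM as the authors deposited them (reads scaled by gene length and library size), which summed to 273800 to 351000 per library. The labels give a range of sequenced reads for the libraries together and no depth for any single one. The values had lost 6 directions of variation between libraries, and within each age the WT and locked-wheel controls hardly differed in them. The limma and permutation tests below treat the libraries as independent, which values that lost shared directions may not be. Their SEs, p-values and counts of calls may therefore be too small, which was not tested. The share of a comparison that lay in the lost directions was 12% for the wheel in old mice and 10.2% in young mice. It was 28.4% for age with a locked wheel and 61.2% for age in WT mice. For genotype it was 35.1% for HET against WT, 38.3% for KO against WT and 0% for KO against HET. Satellite cell markers were present in every library, with a summed level of 14 of 14 listed genes between 2904 and 4713 RPKM and group means of Pax7 between 15.8 and 26.4 RPKM. Most of that sum came from Sdc4 (group means of 1554 to 1948 RPKM) and Myod1 (525 to 897 RPKM). The sum, here and below, is therefore no measure of satellite cell content. Ccnd1 followed the genotype labels, at 2.71 ± 0.495 RPKM in KO (SD, n = 5), 7.18 ± 0.723 RPKM in HET (n = 4) and 11.7 ± 1.4 RPKM in young WT cells (n = 3).

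Neu2 (ENSMUSG00000079434) lies on mm10 chromosome 1 from 87509889 to 87597845, plus strand, and Procr (ENSMUSG00000027611) on chromosome 2 from 155751117 to 155755471, plus strand, in GENCODE M21. The exons of Neu2 cover 2590 bases, of which 123 bases (4.75%) are also exon of Ngef on the other strand. Ngef stood at 0.227 to 3.47 RPKM, and since no source used here states whether counting used strand, those reads cannot be told apart. No other annotated gene overlaps Procr, whose exons cover 2031 bases. RefSeq gives Neu2 3 starts of transcription and Procr 1, and the deposited values hold 1 level per gene, so they do not show which Neu2 start was used. The 4 windows are shown because these 2 genes share directions in some comparisons and part in others. Each runs from 250 bases before a start to 50 after it (RefSeq, GRCm38.p6, plus strand, written 5′ to 3′), and capitals mark CANNTG, the E-box that myogenic factors bind.
Neu2 start 1, chr1:87573777-87574076: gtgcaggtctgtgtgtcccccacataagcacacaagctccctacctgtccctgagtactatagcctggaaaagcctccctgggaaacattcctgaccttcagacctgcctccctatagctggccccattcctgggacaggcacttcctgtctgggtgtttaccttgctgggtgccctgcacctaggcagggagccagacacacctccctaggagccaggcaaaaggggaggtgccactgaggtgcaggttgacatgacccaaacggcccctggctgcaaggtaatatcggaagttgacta
Neu2 start 2, chr1:87583772-87584071: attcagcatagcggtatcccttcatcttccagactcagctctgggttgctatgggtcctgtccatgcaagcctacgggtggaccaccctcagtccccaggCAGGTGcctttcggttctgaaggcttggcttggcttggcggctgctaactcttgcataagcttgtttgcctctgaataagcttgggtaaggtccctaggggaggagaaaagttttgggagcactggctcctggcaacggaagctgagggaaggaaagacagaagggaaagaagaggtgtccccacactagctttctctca
Neu2 start 3, chr1:87594300-87594599: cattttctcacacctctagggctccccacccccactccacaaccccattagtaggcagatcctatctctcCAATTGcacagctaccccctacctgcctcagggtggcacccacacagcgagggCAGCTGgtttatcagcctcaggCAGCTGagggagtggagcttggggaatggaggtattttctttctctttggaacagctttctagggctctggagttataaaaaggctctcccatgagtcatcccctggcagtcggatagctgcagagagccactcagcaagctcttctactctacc
Procr, chr2:155750967-155751266: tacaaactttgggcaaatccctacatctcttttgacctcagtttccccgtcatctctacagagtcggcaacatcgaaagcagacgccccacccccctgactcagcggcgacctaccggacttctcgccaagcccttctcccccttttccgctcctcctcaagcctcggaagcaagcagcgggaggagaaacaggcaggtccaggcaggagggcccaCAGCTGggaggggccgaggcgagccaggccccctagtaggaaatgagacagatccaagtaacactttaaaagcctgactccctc

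The third Neu2 window and the Procr window both held CAGCTG and the AP-1 motif TGAGTCA. The letters CAGCTG occurred at 2 places in the third Neu2 window, starting 127 and 105 bases before the start, and once in the Procr window, 34 bases before it. Of all 32851 promoter windows of this length, 16.3% held CAGCTG on either strand, and 1.9% held 2 or more. TGAGTCA began 13 bases before the third Neu2 start and 154 bases before the Procr start, and 5.2% of all windows held it. The third Neu2 window alone of the 4 held TATAAA, 31 bases before the start (13.6% of all windows), and it also held CCAAT (37.4%), which overlaps the E-box there. GGAATG, the TEAD motif, occurred at 2 places in the first Neu2 window and 1 in the third (14.7% of all windows). The second Neu2 window had a single match, to CACCTG on the other strand (20.2%), which is also an E-box. CANNTG in general was found in 72.3% of all windows. Of the other motifs searched on either strand, none was in the 4 windows. They were the CRE core TGACGT (7.51% of all windows), the E2F motifs TTCGCGC (1.59% of all windows), then TTGGCGC (2.45% of all windows) and then TTCCCGC (4.6% of all windows), the RBPJ motif GTGGGAA (6.38% of all windows), the GC box GGGCGG (35.7% of all windows) and the motifs of MEF2 (3.19%) and SRF (the CArG box, 1.63%). A match describes the letters and does not show binding.

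**Figure D1:**
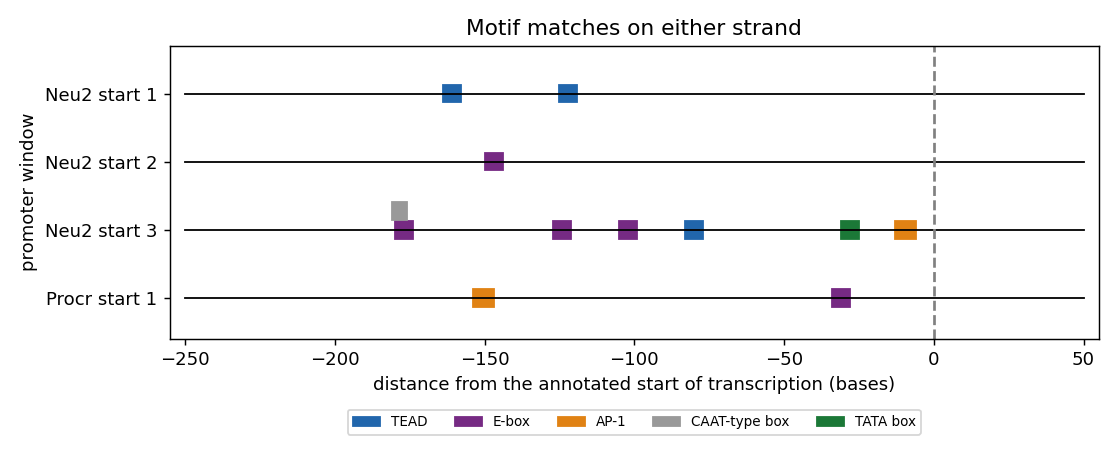
Motif matches on either strand in the 3 Neu2 windows and the Procr window, by distance from the annotated start in bases (dashed line); the width of each box is the length of the match. The third Neu2 window and the Procr window each hold an AP-1 match and at least 1 E-box.

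Neu2 was among the abundant transcripts of these cells, with a median rank of 173 of 11337 genes by RPKM, and it varied 6.8-fold between single libraries. Young mice with a free wheel had 73.35, 91.3 and 143 RPKM, against a lowest of 112, a median of 273 and a highest of 345 RPKM in the 6 young mice with a locked wheel. Of the 3 free-wheel libraries, 2 lay below every locked-wheel library, and the third lay above the lowest of these. The means were 103 ± 36.3 RPKM with a free wheel (SD, n = 3) and 250 ± 79.2 RPKM with a locked wheel (n = 6), a log2 difference of -1.26 ± 0.27 (SE), in a contrast that chose the gene. Limma called 0.714% of all genes lower and 0.406% higher here.

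In old mice, which the choice did not use, Neu2 stood at 233, 255, 222, 334 and 227 RPKM with a free wheel, against 293 (lowest), 370 (median) and 498 RPKM (highest) with a locked wheel. All 5 free-wheel libraries lay below the locked-wheel mean, and 4 lay below every one of the 7 locked-wheel libraries. The log2 difference was -0.55 ± 0.22 (SE). Limma over all genes did not call it (adjusted p = 0.137, 0.0286 to 0.261 over 19 alternatives), while an exact two-sided permutation test over the samples gave p = 0.0114 (adjusted p = 0.0227 over 8 tests). A fit of the 2 groups alone did call it (limma adjusted p = 0.0359). The summed level of 11 myofibre markers was 56.2 to 166 RPKM in the free-wheel and 62.3 to 211 RPKM in the locked-wheel libraries. None of these markers was called, where 7.39% of all genes were. The part of myofibre RNA in the level of Neu2 was not tested. The size of the wheel difference in old mice was not tested against that in young mice, because the young libraries chose the gene.

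Neu2 rose with age in mice with a locked wheel, to 374 ± 76.2 RPKM (SD, n = 7) in old against 250 ± 79.2 RPKM (n = 6) in young mice. All 7 old libraries lay above the young mean and 4 lay above every young library. The log2 difference was 0.64 ± 0.21 (SE, limma adjusted p = 0.022, 0.0102 to 0.0509 over 20 alternatives). The exact permutation test gave p = 0.00816 (adjusted p = 0.0218). Limma called 38.3% of all genes in this comparison, 20.5% of them higher and 17.8% lower as shares of all genes. Without the fourth young locked-wheel library the log2 difference was 0.42 (limma adjusted p = 0.0459). The comparison shares the young locked-wheel libraries with the wheel contrast that chose the gene, so it is not independent of that choice. Of 11 myofibre markers 4 were called lower in old mice and none higher. Of 14 satellite cell markers 7 were called lower and 2 higher, and of 10 fibro-adipogenic markers 4 were lower and 4 higher. The part of any of these cell types in the difference of Neu2 was not tested. Because these are bulk samples, fewer cells of a type and less RNA per cell cannot be told apart here or in any other comparison.

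In WT mice of the Ccnd1 cohort Neu2 stood at 429, 417 and 254 RPKM in old, against 226, 272 and 289 RPKM in young mice. The third old library lay inside the young range, and the others lay above it. The log2 difference of 0.45 ± 0.25 (SE) was 0.70 without the third old library. It is given with no test, since the young WT libraries also served as controls for the knockout. This cohort is no independent measure of age, since the lost directions tie both sets of controls together.

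Neu2 was lowest in the HET cells of the Ccnd1 cohort. It stood at 288, 387, 273, 221 and 298 RPKM in KO, 106, 199, 128 and 177 RPKM in HET and 226, 272 and 289 RPKM in young WT cells. All 5 KO libraries lay above all 4 HET libraries and the KO range (221 to 387 RPKM) held the whole WT range. KO stood 0.97 ± 0.21 above HET and 0.15 ± 0.23 above WT on the log2 scale (SE), values of contrasts that used the KO libraries. Limma called 5.05% of all genes higher in KO than in WT cells, 573 higher and 220 lower, against 426 higher and 271 lower under RLE scaling (median-ratio factors). The HET libraries all lay below the WT libraries, with a log2 difference of -0.82 ± 0.24 (SE). No test is given, because the HET libraries were low in the contrast of KO with HET that the choice rests on. Limma called 3.4% of all genes lower in HET than in WT cells, and the split of 225 higher and 386 lower became 274 higher and 187 lower under RLE scaling. Satellite cell markers summed to 3378 to 4713 RPKM in KO, 2904 to 3559 RPKM in HET and 3389 to 4115 RPKM in young WT libraries. Of the 14 markers, 2 were called lower in HET than in WT cells (median log2 difference -0.32) and 2 higher in KO than in HET cells (5.15% of all genes). The 10 fibro-adipogenic markers summed to 1068 to 1423 RPKM in KO, 942 to 1142 RPKM in HET and 1163 to 2079 RPKM in young WT libraries, with 2 called lower in HET than in WT cells (median -0.47). Their part in the level of Neu2 was not tested.

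**Figure D2:**
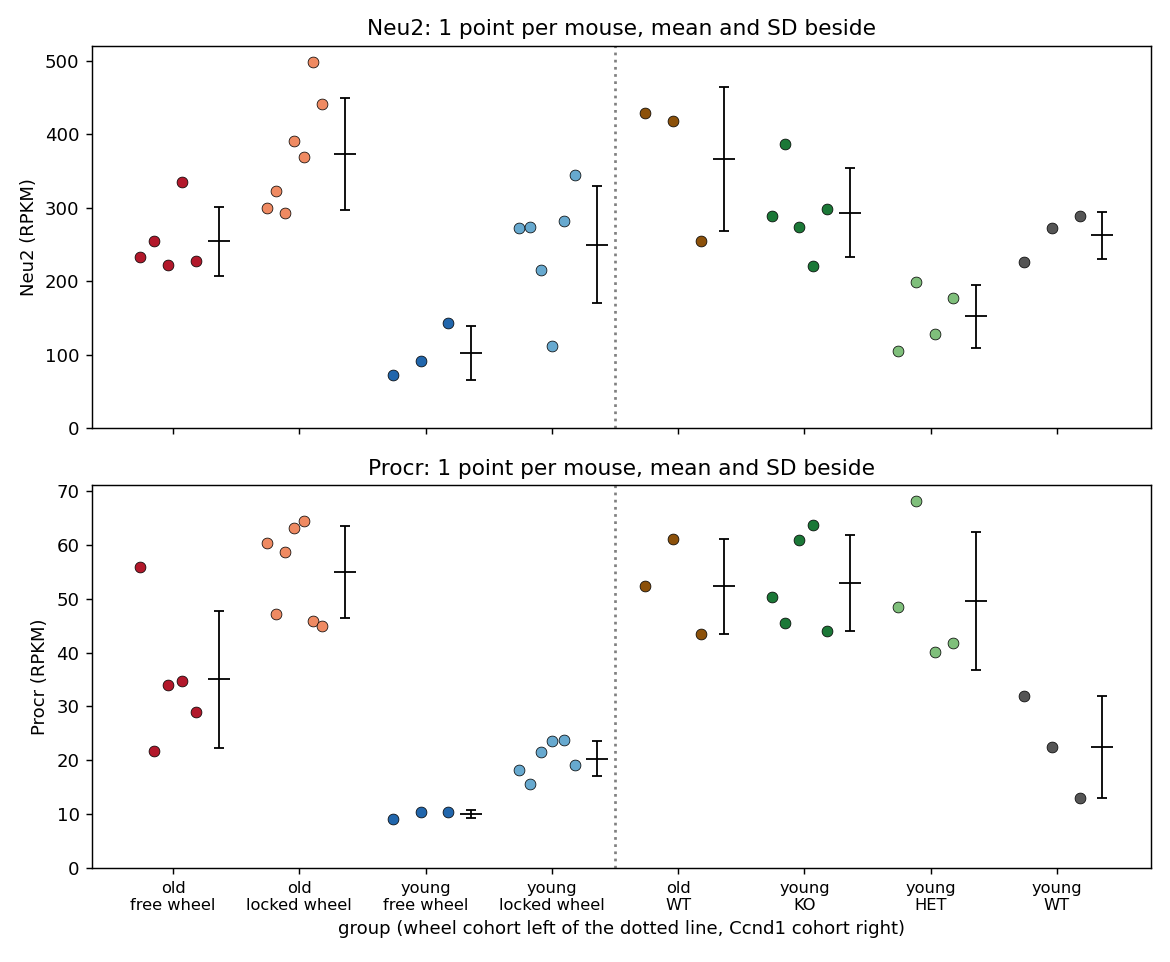
RPKM of Neu2 (top) and Procr (bottom) in each library by group, with the mean and SD beside the points; both axes start at 0. The young free-wheel group has the lowest mean for both genes, and young HET libraries are low for Neu2 but among the high groups for Procr.

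Procr was less abundant than Neu2 on the same per-length scale, with a median rank of 1130 of 11337 genes, and varied 7.44-fold between libraries. Young mice with a free wheel had 9.15, 10.4 and 10.4 RPKM, against 15.6 (lowest), 20.3 (median) and 23.8 RPKM (highest) with a locked wheel. The ranges did not overlap. The means were 9.98 ± 0.719 RPKM (SD, n = 3) and 20.3 ± 3.21 RPKM (n = 6), a log2 difference of -1.01 ± 0.20 (SE) in a contrast that chose the gene.

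In old mice Procr also fell with the free wheel. It stood at 55.9, 21.7, 34.0, 34.7 and 29.0 RPKM in free-wheel mice, against 45.0 (lowest), 58.6 (median) and 64.4 RPKM (highest) in locked-wheel mice. The first free-wheel library lay within the locked-wheel range, and the other 4 lay below every locked-wheel library. The log2 difference was -0.70 ± 0.16 (SE, limma adjusted p = 0.0142), and the exact permutation test gave p = 0.00631 (adjusted p = 0.0218). Of the pair only Procr was called by limma, where 7.39% of all genes were called and 3.3% were lower. The call held in each of 19 alternatives, the omission of any of the 12 libraries included.

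Endothelial cells are the classical site of EPCR, so 14 endothelial markers were read beside Procr. Their summed level was 209 to 301 RPKM in old free-wheel and 144 to 233 RPKM in old locked-wheel libraries, with 3 markers called higher and none lower (4.09% and 3.3% of all genes), while Procr was lower. Of 9 mural cell markers 3 were called lower and 1 higher, with a median log2 difference of -0.12, and their summed level was 262 to 321 RPKM in old free-wheel and 222 to 278 RPKM in old locked-wheel libraries. The mural marker Myh11, a smooth muscle myosin singled out after its values were seen, had means of 12.3 RPKM in old free-wheel and 18.0 RPKM in old locked-wheel mice. Of the other mural markers, Acta2 (184 against 126 RPKM) and Tagln (5.3 against 3.9 RPKM) had higher means with the free wheel. The rest had lower means. In young mice the endothelial sums were 139 to 175 RPKM with a free wheel and 129 to 209 RPKM with a locked wheel. The mural sums there were 315 to 391 RPKM with a free wheel and 294 to 417 RPKM with a locked wheel. No marker of either list was called in young mice, where 1.12% of all genes were. The endothelial markers Pecam1 and Cdh5 had group means of 14.1 to 24.6 and 13.4 to 16.5 RPKM, although the wheel cohort was sorted without CD31, the product of Pecam1. The part of endothelial or mural RNA in the level of Procr was not tested.

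Of the 7 comparisons, age with a locked wheel had the largest log2 difference of Procr, next to 1.31 for KO against WT. These differences were not tested against each other. Old mice with a locked wheel had 54.9 ± 8.54 RPKM (SD, n = 7), against 20.3 ± 3.21 RPKM (n = 6) in young mice, and the lowest old library (45.0) lay above the highest young library (23.8). The log2 difference was 1.44 ± 0.16 (SE, limma adjusted p = 7.6e-07, exact permutation p = 0.000583, the smallest this design allows, adjusted p = 0.00466). By p it ranked 92 of 11337 genes in a comparison that called 38.3% of them. Of 14 endothelial markers 4 were called higher and none lower, where 20.5% of all genes were called higher and 17.8% lower. Their sums were 144 to 233 RPKM in old and 129 to 209 RPKM in young libraries. In WT mice of the other cohort Procr stood at 52.3, 61.1 and 43.4 RPKM in old, against 32.0, 22.4 and 13.0 RPKM in young mice. These did not overlap, and the log2 difference was 1.30 ± 0.28 (SE), where limma called 15.8% of all genes. It is given with no test, since the young WT libraries were low in the contrast that chose the gene. The locked-wheel comparison also shares its young controls with a choosing contrast, in which they were the higher group. The lost directions tie these controls to the young WT libraries, which were low in the other choosing contrast. The tests of the locked-wheel comparison are therefore not independent of the choice. The WT comparison is no independent measure of age, since the lost directions, 61.2% of it, tie both sets of controls together.

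Procr was higher in HET than in young WT cells. HET cells had 48.5, 68.1, 40.2 and 41.9 RPKM, against 32.0, 22.4 and 13.0 RPKM in young WT cells, with no overlap. The log2 difference was 1.20 ± 0.26 (SE), and it was 0.86 without the third WT library and 1.504 without the first. No test is given, because these WT libraries were low in the contrast of KO with WT that chose the gene. Limma called 5.39% of all genes here and 1.98% as higher. KO cells had 50.4, 45.5, 61.0, 63.7 and 44.1 RPKM, all above the WT range. KO stood 1.31 ± 0.25 above WT and 0.11 ± 0.23 above HET on the log2 scale (SE), and the KO range lay inside the HET range. HET and KO are both set against the same 3 WT libraries, which spread between 13.0 and 32.0 RPKM. Endothelial sums were 166 to 216 RPKM in KO, 170 to 191 RPKM in HET and 130 to 188 RPKM in young WT libraries. Of the 14 markers 1 was called higher in HET and 1 in KO against WT (1.98% and 5.05% of all genes). Mural sums were 300 to 411 RPKM in KO, 373 to 513 RPKM in HET and 273 to 433 RPKM in young WT libraries, with 1 of 9 markers called higher in HET against WT (median log2 difference 0.48) and none in KO against WT (median 0.30). Myh11, singled out after its values were seen, averaged 20.4 RPKM in KO, 18.8 RPKM in HET and 12.5 RPKM in young WT cells. The mural markers Rgs5 (26.8 against 28.9 RPKM) and Notch3 (56.55 against 59.6 RPKM) had lower means in KO than in WT cells. The rest of that list had higher means in KO. The part of endothelial or mural RNA in these levels of Procr was not tested.

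**Figure D3:**
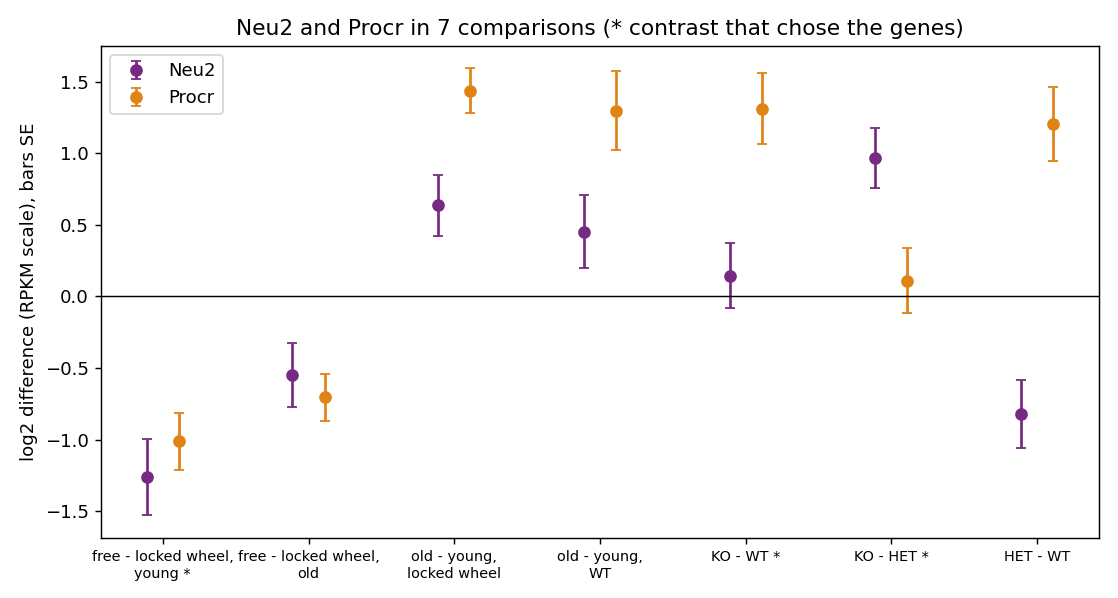
Log2 differences of Neu2 (purple) and Procr (orange) in 7 comparisons, with bars of 1 SE from limma; an asterisk marks a contrast that chose the genes. Both genes lie below 0 for the free wheel and above 0 for age, and for HET against WT Neu2 lies at -0.82 and Procr at 1.20.

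Ordered by mean, Neu2 was lowest in young free-wheel cells (103 RPKM), then young HET (152 RPKM), young locked-wheel (250), old free-wheel (254), young WT (262), young KO (293), old WT (367) and old locked-wheel cells (374). Only the first 2 steps of that order, up to the young locked-wheel group, exceeded the larger SD of the neighbouring groups on the log2 scale, and the ranges of all neighbours overlapped. For Procr the order began with young free-wheel (9.98 RPKM), young locked-wheel (20.3), young WT (22.5), old free-wheel (35.1) and young HET cells (49.6). Old WT (52.3), young KO (52.9) and old locked-wheel cells (54.9) followed. The steps to young locked-wheel, to old free-wheel and to HET cells exceeded the larger SD, and the step from young free-wheel to young locked-wheel cells alone had no overlap. Of the 4 highest groups for Procr, no neighbours differed beyond their spread. Old free-wheel cells stood next to young locked-wheel cells for Neu2, and between the young controls and old locked-wheel cells for Procr. The order spans both cohorts. Of the differences between WT and locked-wheel controls, 92% in young and 96% in old mice lay in the lost directions. The nearness of these controls, and the place of KO and HET among the wheel groups, are therefore no independent measure.

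Among mice of 1 group no relation between the genes passed a test. Pearson's r of the log2 values was -0.50 in the 7 old locked-wheel libraries (exact permutation p = 0.237, adjusted p = 0.34; Spearman's rho = -0.39, p = 0.396, adjusted p = 0.791) and -0.25 without the 2 libraries farthest from the median of Neu2. It was also -0.50 in the 6 young locked-wheel libraries (exact permutation p = 0.34, adjusted p = 0.34; Spearman's rho = -0.14, p = 0.803, adjusted p = 0.803), and 0.16 without the 2 farthest, so its sign rests on them. Over all 36 libraries r was 0.49, a value that the choice of the genes helped to set and that includes differences between groups. Procr ranked 1409 of 10385 genes in likeness to Neu2, and Neu2 ranked 1553 in likeness to Procr.

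**Figure D4:**
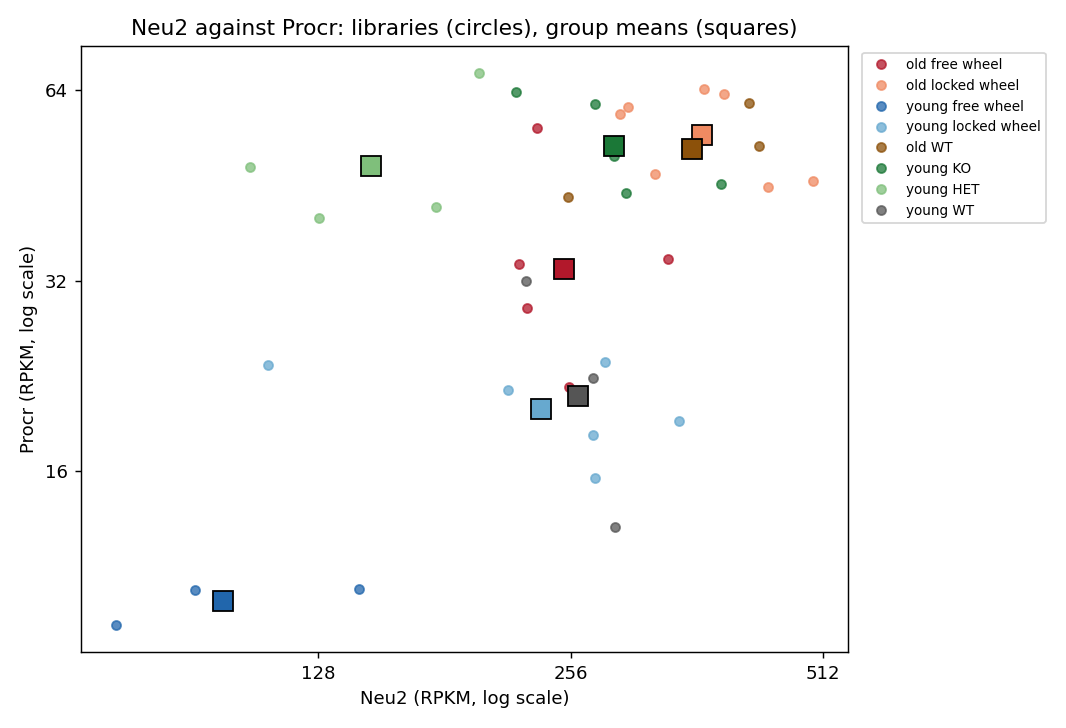
Procr against Neu2 in RPKM on log axes, with 1 circle per library and a square at the mean of the log values of each group. The young HET group stands left of the other groups with high Procr, and the young free-wheel group is at the lower left.

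The genes most like each member over the 36 libraries, ranked within 10385 named genes that averaged 1 RPKM or more, were not the same. Neu2 was followed most closely by Lama3, a laminin chain (r = 0.87), Homer1, a scaffold protein (0.86), the cell adhesion gene Nectin3 (0.85), the small nucleolar ribonucleoprotein gene Snu13 (0.85) and Srxn1, which repairs oxidised peroxiredoxins (0.85). Aif1l, which encodes an actin-binding protein (-0.85), and the collagen gene Col18a1 (-0.78) were most opposite. Homer1 stood at 14.5 ± 1.67 RPKM in old free-wheel (SD, n = 5) against 21.1 ± 2.42 RPKM in old locked-wheel mice (n = 7), a log2 difference of -0.54 ± 0.10 (SE). It was 18.2 ± 2.88 RPKM in KO (n = 5), 10.6 ± 2.23 RPKM in HET (n = 4) and 15.4 ± 0.875 RPKM in young WT cells (n = 3), the same order of genotypes as Neu2. Homer1 was picked for its likeness to Neu2 over libraries that include these, which helped to set that order.

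Procr was followed most closely by Hs3st1, a heparan sulfate sulfotransferase (r = 0.93), Gja4, which encodes connexin 37 (0.90), the cytokine gene Il6 (0.89) and Tox2, a nuclear HMG-box protein (0.88). Scamp5 (-0.89) and the mitotic spindle gene Ckap2 (-0.88) were most opposite. Il6 stood at 124 ± 37.3 RPKM in KO (SD, n = 5) and 133 ± 45.1 RPKM in HET (n = 4), against 51.4 ± 8.48 RPKM in young WT cells (n = 3). Its HET difference from WT was 1.32 ± 0.25 on the log2 scale (SE). In young mice, however, Il6 was 48.5 ± 10.9 RPKM with a free wheel (n = 3) and 52.3 ± 10.2 RPKM with a locked wheel (n = 6), while Procr differed by -1.01 on the log2 scale. Tox2 had the largest log2 difference of these 4 in young mice, at 0.634 ± 0.329 RPKM with a free wheel and 1.6 ± 0.301 RPKM with a locked wheel. These likenesses are descriptions over libraries that share their groups.

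**Figure D5:**
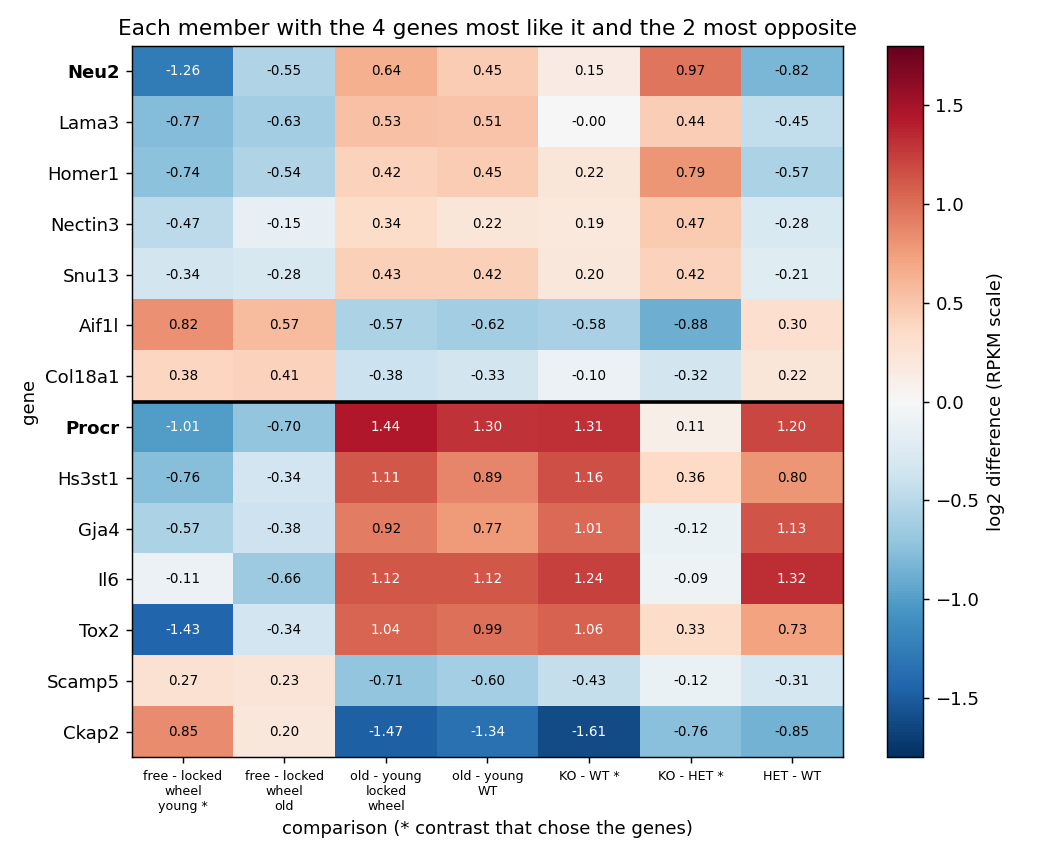
Log2 differences (colour and number) of Neu2, Procr and, under each, the 4 genes most like it and the 2 most opposite over the 36 libraries, in 7 comparisons. For HET against WT the 4 genes most like Neu2 have negative differences and the 4 most like Procr positive ones. The 36 libraries include HET and WT, so the way these genes were picked helped to set those directions.

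Sialic acids are made from UDP-N-acetylglucosamine, activated to CMP-sialic acid, attached by sialyltransferases and removed by sialidases. Of a list of 50 such genes 35 were in the table, and 34 of these are genes other than Neu2. The lysosomal sialidase gene Neu1 stood at 7.61 to 11.3 RPKM in all libraries, below every value of Neu2 on the same per-length scale, and was called in none of the 7 comparisons. With the free wheel in old mice 3 of the 34 rose and none fell, with a median log2 difference of 0.12 against -0.01 over all genes (4.09% of all genes were called higher and 3.3% lower). They were Ctsa, whose product protects Neu1 in lysosomes (0.30 ± 0.06, SE, limma adjusted p = 0.00665), the sialyltransferase gene St3gal4 (0.31 ± 0.08, limma adjusted p = 0.0296) and the ganglioside activator gene Gm2a. No gene of the list was called for the wheel in young mice, KO against WT, KO against HET or HET against WT, where 1.12%, 6.99%, 6.04% and 5.39% of all genes were called.

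With age and a locked wheel 3 of the 34 rose and 5 fell, against 20.5% and 17.8% of all genes, with a median of 0.09 against 0.01 over all genes. Npl, the lyase that breaks down sialic acid, rose (0.96 ± 0.15, limma adjusted p = 4e-05), as did St3gal1 (0.46 ± 0.10, limma adjusted p = 0.000708), while the sialyltransferase genes St6gal1 (-0.71 ± 0.19, limma adjusted p = 0.00446) and St3gal5 (-0.39 ± 0.10, limma adjusted p = 0.00452) fell. In old WT mice Npl rose and the lysosomal sialic acid exporter gene Slc17a5 fell, and no other gene of the list was called (8.03% of all genes were higher and 7.76% lower). Gne, which encodes the enzyme that starts sialic acid synthesis, had group means of 0.722 to 1.67 RPKM, and Cmas, which activates sialic acid, 1.84 to 2.66 RPKM. Neither was called in any of the 7 comparisons.

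Around EPCR, a list of 46 genes of the protein C pathway, clotting and fibrinolysis held 29 genes of the table, 28 of them other than Procr. Thbd, which encodes thrombomodulin, had group means of 46.1 to 60.7 RPKM and was called in none of the 7 comparisons. F2r, the receptor of thrombin and activated protein C, was abundant, with group means of 181 to 248 RPKM, and it rose with age in locked-wheel mice (0.34 ± 0.10, SE, limma adjusted p = 0.00954). The genes for tissue factor, F3 (4.75 to 7.42 RPKM), and the urokinase receptor, Plaur (152 to 229 RPKM), were not called in any of the 7.

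With the free wheel in old mice 1 of the 28 rose and 2 fell (4.09% and 3.3% of all genes), with a median log2 difference of -0.09 against -0.01 over all genes. The sphingosine 1-phosphate receptor gene S1pr1, whose product takes part in barrier signalling by activated protein C, rose (0.47 ± 0.11, SE, limma adjusted p = 0.013). Its relative S1pr3 (-0.58 ± 0.11, limma adjusted p = 0.00586) and the sphingosine kinase gene Sphk1 (-0.37 ± 0.11, limma adjusted p = 0.0366) fell. With age and a locked wheel 6 of the 28 rose and 6 fell, shares near the 20.5% and 17.8% of all genes, with a median of -0.00094 against 0.01 over all genes, among them Anxa5 (0.37 ± 0.09, limma adjusted p = 0.00375), Plau (0.52 ± 0.15, limma adjusted p = 0.00763), the vitamin K dependent carboxylase gene Ggcx (-0.42 ± 0.07, limma adjusted p = 0.000135) and S1pr1 (-0.50 ± 0.10, limma adjusted p = 0.000645). In old WT mice, where 15.8% of all genes were called, Ggcx alone of the 28 was called, and it fell. None was called for the wheel in young mice or for KO against WT (1.12% and 6.99% of all genes). Gas6, a vitamin K dependent ligand of the Axl family, was the 1 gene of the list called for HET against WT (5.39% of all genes) and for KO against HET (6.04%). It stood at 81.5 ± 8.84 RPKM in KO (SD, n = 5), 54.4 ± 3.02 RPKM in HET (n = 4) and 88.2 ± 14.6 RPKM in young WT cells (n = 3), with HET below WT by -0.69 ± 0.14 (SE, limma adjusted p = 0.0175) and KO above HET by 0.58 ± 0.12 (limma adjusted p = 0.0163).

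The authors' deposited table gives each gene's correlation with Ccnd1, which was -0.356 for Neu2 and -0.637 for Procr in the authors' deposited table. Ranked from the most negative of 11337 genes, Procr was at place 149 and Neu2 at place 1738 in the authors' deposited table. No source used here states how that coefficient was computed. Pearson's r of RPKM over all 36 libraries was -0.33 for Neu2 and -0.58 for Procr, as descriptions over libraries in separate groups. For the wheel, Ccnd1 differed by 1.24 in old and 0.61 in young mice on the log2 scale. It differed by -0.55 for age with a locked wheel, -0.70 for HET against WT and -2.12 for KO against WT. Procr differed the other way in each, at -0.70, -1.01, 1.44, 1.20 and 1.31 in that order. Neu2 did so in all but HET against WT (-0.82). The wheel in young mice and KO against WT chose the genes, and the age and HET comparisons share libraries with them. By genotype Ccnd1 averaged 2.71 RPKM in KO and 7.18 RPKM in HET cells with no overlap, while Procr averaged 52.9 RPKM in KO and 49.6 RPKM in HET cells with overlap.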

How the data were processed

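PolyA RNA of sorted cells was reverse transcribed with oligo(dT) primers and sequenced as paired reads, per the labels' protocols. The submitters' processing notes name Trim Galore, STAR, mm10, featureCounts and Subread. The authors deposited RPKM values of 11337 genes, with no zeros, and a correlation with Ccnd1 per gene, which is a score. No source used here states how the RPKM were adjusted. The centred log2 matrix had rank 29 of 35 possible, so 6 directions were missing. Within young and within old mice, limma gave 0 genes at p under 0.05 between WT and locked-wheel controls, unadjusted, where 567 are expected by that threshold. The test was limma on a log scale, since these values are not counts.

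Groups came from the sample titles. Log2 RPKM without a pseudocount was fitted with limma in each cohort (21 and 15 libraries, eBayes with trend and robust settings). Benjamini-Hochberg adjustment ran over 11337 genes, and a call is an adjusted p under 0.05. Exact two-sided permutation tests over samples were adjusted over 8 tests. The 4 of these on age in WT mice and HET against WT are not printed, since the choice of the genes used those libraries. The members, gene lists and tests were chosen with earlier results of these data known. Named were Neu2, Procr, Ccnd1, fixed genes of each list, up to 2 called genes per list, comparison and direction by lowest p, and the 5 genes most like each member and the 2 most opposite. Of the genes this rule names, 2 are not reported here. Gm2a was named after its value was seen. Neu3, Neu4 and F2rl1 were not analysed here. The fits were tested on simulated data. Alternatives were RLE scaling, a pseudocount of 1 RPKM, a mean of at least 1 RPKM, other sets of libraries, plain eBayes, a replicate block and omission of each library. Software was R 4.3.3, limma 3.58.1, statmod 1.5.0, Python 3.11.15, numpy 2.4.6, scipy 1.17.1, pandas 2.3.3 and matplotlib 3.10.9.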

Additional observations from a re-analysis of the deposited data

How the results depend on the processing

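No log2 difference of Neu2 or Procr changed sign under the alternatives run. Over tested differences, correlations and counts of calls, 172 of 216 comparisons with an alternative stayed on the same side of the threshold (for counts, within 1.5 times). With the 2 compared groups alone, Neu2 passed for the wheel in old mice (-0.5476, limma adjusted p = 0.0359) and the log2 difference of Procr for HET against WT, given with no test, was 1.204, and limma calls numbered 22 (against 127) for the young wheel comparison, 300 (against 611) for HET against WT, 379 (against 793) for KO against WT and 327 (against 685) for KO against HET. For the wheel in young mice plain eBayes gave 84 calls. RLE scaling called 330 genes for KO against HET, 199 higher and 131 lower against 584 and 101 without it. Under RLE the split was 274 higher and 187 lower for HET against WT, against 225 and 386, and 426 and 271 for KO against WT, against 573 and 220. Causes were not tested.

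Leaving out 1 library at a time, the genes called ranged between 351 and 923 for the wheel in old mice (main 838), 5 and 205 for the wheel in young mice, 873 and 1366 for age in WT mice (main 1790), 68 and 621 for HET against WT, 98 and 938 for KO against WT, and 265 and 743 for KO against HET. The lowest counts came without O(+Ex) 3, Y(+Ex) 2, O(WT) 3, Y(WT) 2, Y(WT) 3 and Y(HET) 3, in that order. Other omissions that moved a count over 1.5 times were O(+Ex) 2 (468), O(-Ex) 4 (471) and 5 (556) for the wheel in old mice; Y(+Ex) 1 (17) and Y(-Ex) 1 to 6 (196, 66, 205, 74, 60 and 67) for the wheel in young mice; Y(WT) 2 (1083) and 3 (937) for age; Y(HET) 1 (266), 2 (198) and 4 (157) and Y(WT) 3 (259) for HET against WT. They were Y(KO) 1 (478), 3 (320) and 5 (314) and Y(WT) 2 (116) for KO against WT, and Y(KO) 3 (397) and 5 (438) and Y(HET) 1 (370) and 4 (324) for KO against HET. The log2 difference of Procr ranged between 0.8582 and 1.504 for HET against WT and between 0.01763 and 0.2713 for KO against HET, and that of Neu2 between 0.4198 (without Y(-Ex) 4) and 0.7454 for age with a locked wheel, 0.3199 and 0.6973 for age in WT mice, and 0.03993 and 0.2428 for KO against WT.

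Replicate numbers name individual mice. Same-numbered libraries had deviations from their group means that correlated between -0.259 and 0.302, so the numbers were not taken as pairs. With a replicate block, Neu2 passed for the wheel in old mice (-0.4069, limma adjusted p = 0.0286) and did not pass for age with a locked wheel (0.5925, limma adjusted p = 0.0509). Procr had a log2 difference of 1.275 for HET against WT. By limma the block fit gave 0 calls for the young wheel comparison (1379 at an unadjusted p under 0.05), 699 for age in WT mice, 8 for HET against WT, 1 for KO against WT and 36 for KO against HET (12 higher and 24 lower, against 584 and 101 without the block).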
